A study of Sus scrofa with 4 samples.

Results

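The translation initiation and elongation factors are the proteins that bring a ribosome to an mRNA, set it on the start codon and move it along the reading frame. Their mRNAs were taken from the deposited table by gene symbol, as every row with values whose symbol begins with EIF1 to EIF6, EEF1 or EEF2, which gave 59 of the 16050 genes with values. The symbols of 64 rows match. The other 5, EEF1A2, EIF1AY, EIF2B4, EIF3B and EIF4B, hold no values, and EIF2B4, EIF3B and EIF4B are typed as lncRNA there. The libraries came from porcine oocytes labelled metaphase II, matured in vitro for 42 to 44 h as cumulus-oocyte complexes from slaughterhouse ovaries, either without added Cu (Control, replicates 1 and 2) or with copper sulfate at 25 μg/mL (Cu, replicates 1 and 3). A library held 3 oocytes and was made by Smart-seq2, which copies and amplifies polyadenylated mRNA from very small samples. Nothing in the labels gives the animals behind a library, so the p-values measure only the spread between these 4 libraries. Each direction below rests on the group labels of the libraries, which could not be checked independently, and exchanged labels would turn every direction. The paper reported oxidative phosphorylation genes as downregulated in Cu-exposed oocytes. The genes of this pathway that it named were also lower by its quantitative PCR, and its sequencing included further libraries. Values of those genes are not given here, so its claim was not tested. Among other genes of the pathway, some were higher in the Cu libraries here. ATP5MG had 351 and 289 FPKM in Control 1 and 2, against 521 and 527 in Cu 1 and 3. SDHD had 27.7 and 36.5 FPKM in Control 1 and 2, against 50.2 and 84.6 in Cu 1 and 3. For ATP5F1C the groups overlapped. Why ATP5MG and SDHD were higher was not tested.

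The values were deposited as FPKM, in which fragment numbers are divided by transcript length and library size. Levels of different genes can then be set side by side, but only approximately. Unequal copying or amplification of different transcripts is not corrected by this, and its part in the ratios between genes was not tested. The number of fragments behind a value is not kept, and the depth of the libraries is unknown. FPKM are shares of a library, and fewer transcripts per oocyte cannot be told apart from a larger share of other transcripts. FPKM summed to between 616082 and 672681 per library, and 7923 to 8162 genes stood at 1 FPKM or more in Control 1, Control 2 and Cu 3, against 9364 in Cu 1. All 15 oocyte marker genes with values passed the low-value filter, with KPNA7 at 1019 to 1847 FPKM. Of 19 cumulus and granulosa markers, 13 had values, and only VCAN and GREM1 passed. The 13 summed to 2.54 and 3.97 FPKM in Control 1 and 2, and to 7.83 and 3.04 FPKM in Cu 1 and 3. GREM1 was highest in Cu 1, with 5.05 FPKM against 0.90 to 1.86 in the other libraries, while AMH and NR5A2 were listed at 0 in all 4.

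Translation begins when eIF2 carries the initiator tRNA to the small ribosomal subunit, together with eIF1, eIF1A, eIF3 and eIF5, and when the eIF4 proteins bind the cap of the mRNA and unwind its leader. A fully grown oocyte makes almost no new mRNA. Its proteins come from stored maternal transcripts, whose use is regulated through cap binding and poly(A) tails. Because polyadenylated mRNA was copied, a level or a difference between groups may also depend on the tails, which were not measured.

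The 59 mRNAs ranged from EIF1 at a mean of 1151 FPKM over the 4 libraries to EEF2KMT, listed at 0 in every one. By mean level, 14 were at 100 FPKM or more, 20 lay between 10 and 100, 17 between 1 and 10, and 8 below 1. Together they took 0.662% and 0.692% of all FPKM in Control 1 and 2, and 0.798% and 0.624% in Cu 1 and 3. The Cu libraries therefore held the highest and the lowest share. EIF1 alone gave 28.5% and 28.1% of the FPKM of all translation factors in Control 1 and 2, and 24.5% and 21.1% in Cu 1 and 3.

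**Figure D1:**
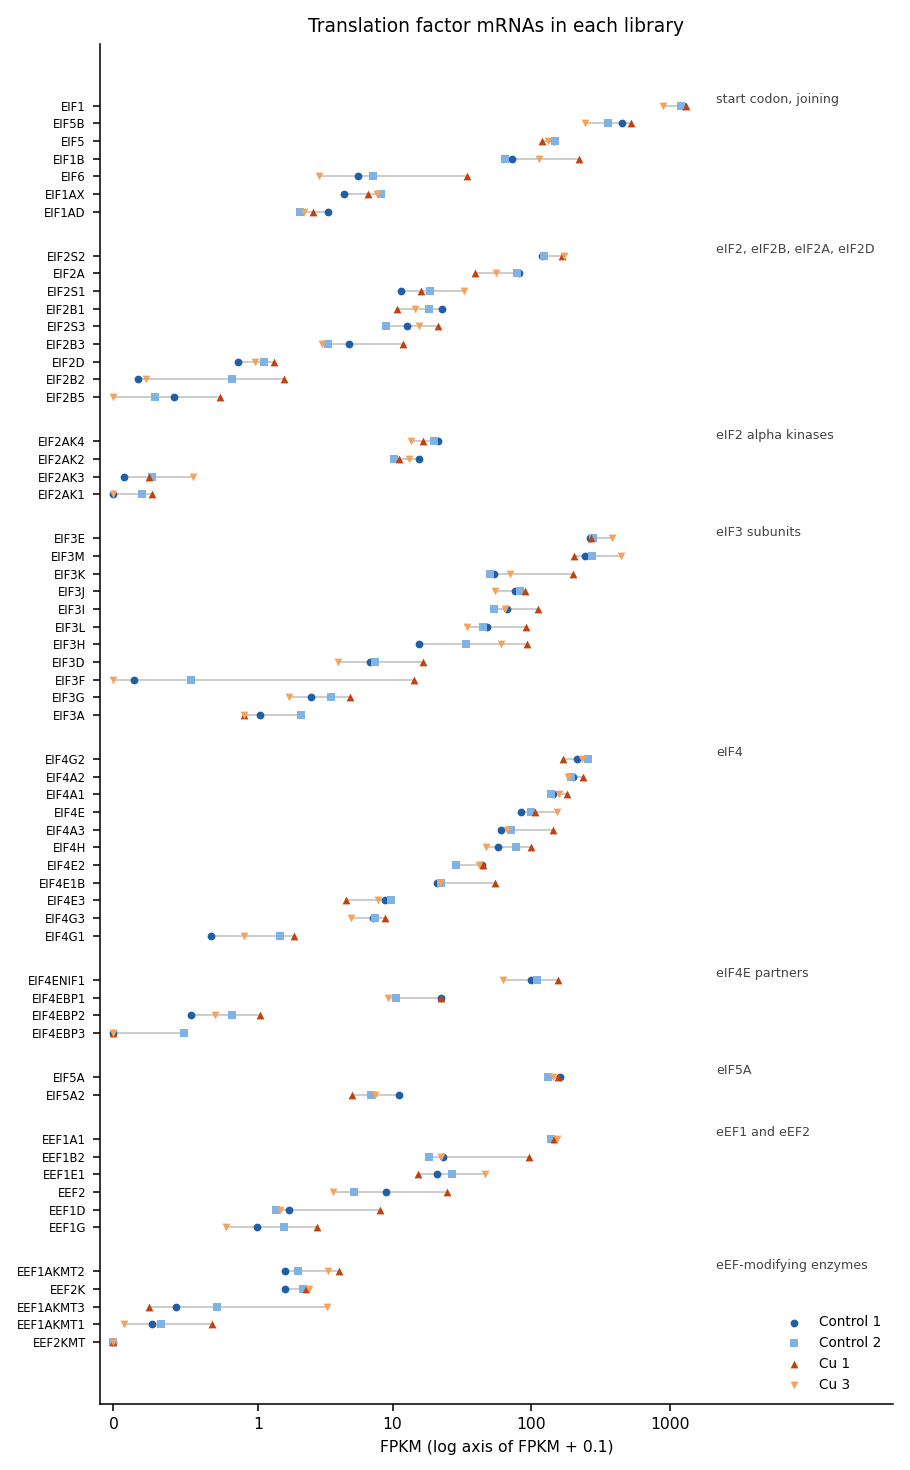
FPKM of the 59 translation factor mRNAs in the 4 libraries, on a log axis of FPKM + 0.1, grouped by the role of the protein. Each point is 1 library and each grey line runs from the lowest to the highest. EIF1 is the highest of all, each role group holds genes of very unequal level, and Cu 1 is often the point furthest to the right.

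Both groups were compared on log2(FPKM + 1) for genes that reached 1 FPKM in 2 or more libraries, with limma's moderated test and Benjamini-Hochberg adjustment over all 8541 genes tested. Of the 59 translation factors, 49 passed this filter. The other 10 were EIF2B2, EIF2B5, EIF2AK1, EIF2AK3, EIF3F, EIF4EBP2, EIF4EBP3, EEF1AKMT1, EEF1AKMT3 and EEF2KMT, which were under 1 FPKM in at least 3 libraries. None of the 49 passed 0.05 by adjusted p, with 0.0% of all genes called, and the smallest adjusted p among them was 0.641 (limma). At an unadjusted p of 0.05 or less, 2 were higher in Cu (4.08% of the 49, where 5.58% of all tested genes were called) and 0 were lower (1.43% of all tested genes), with 7.01% of all tested genes called in either direction. The Cu values were both above the Control values in 10 factors, 20.4% of the 49, against 25.4% of all tested genes. They were both below in 6 factors, 12.2%, against 13.4% of all tested genes. The median log2 fold change of the 49 was 0.19, beside 0.16 for all tested genes, with 32 factors above 0 and 17 below (65.3% above, against 64.3% of all tested genes). After quantile normalization these medians were -0.031 and -0.049, and 22 factors were above 0 and 27 below (44.9% above, against 45.8% of all tested genes), so that the direction of a small change depended on the scaling. In their number of calls and in their median, the translation factors were thus close to the background of the table.

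**Figure D2:**
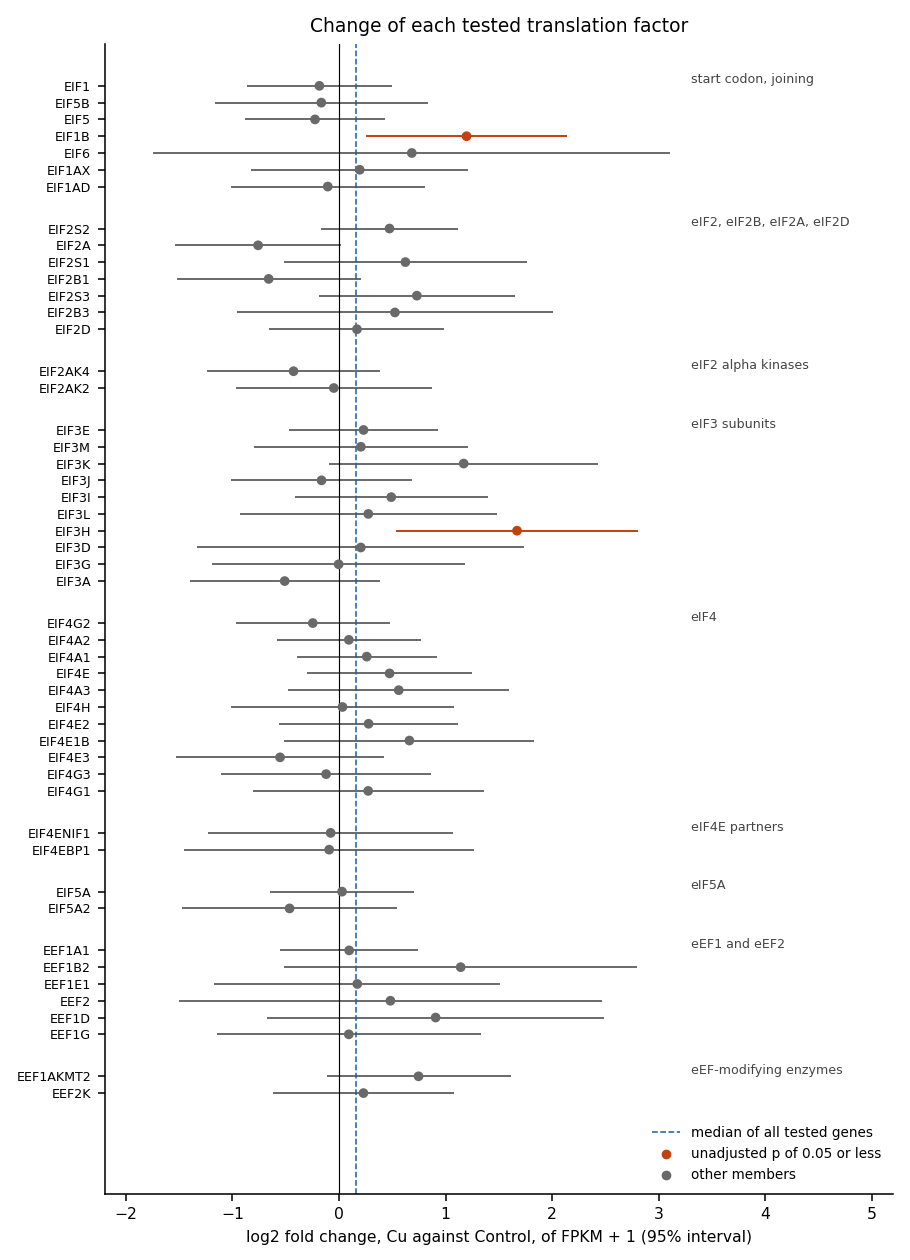
Log2 fold change between Cu and Control of FPKM + 1 for the 49 tested translation factors, with the 95% interval of limma's fit (2 libraries per group). EIF3H and EIF1B, in colour, have intervals above 0, and the dashed line marks 0.16, the median of all tested genes.

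The leading change belonged to EIF3H, a subunit of eIF3, the large complex that holds the small ribosomal subunit ready for the mRNA. EIF3H (identifier 100522801, chromosome 4, 21955026 to 22053683) had 15.5 FPKM in Control 1 and 33.8 in Control 2, against 93.6 in Cu 1 and 60.2 in Cu 3. Both Cu libraries stood above both Control libraries, and the Control values differed from each other by more than the Cu values on the log scale. The log2 fold change was 1.67 (standard error 0.47, 95% interval 0.53 to 2.81), with an unadjusted p of 0.0115 and an adjusted p of 0.641 in limma. EIF1B was the other factor at an unadjusted p of 0.05 or less. It is a close paralog of EIF1, the factor that guards the choice of the start codon, and lies at chromosome 13, 24575183 to 24577486 (identifier 414417). Positions are those of whole genes in RefSeq's annotation of Sscrofa11.1. EIF1B had 72.4 FPKM in Control 1 and 65.0 in Control 2, against 219 in Cu 1 and 114 in Cu 3. Its log2 fold change was 1.2 (standard error 0.38, 95% interval 0.26 to 2.14, unadjusted p = 0.0207, adjusted p = 0.652 in limma). Without Control 1 the unadjusted p rose to 0.103 for EIF3H and 0.0793 for EIF1B in limma, and without Control 2 it was 0.0106 and 0.112. Leaving out each library gave log2 fold changes of 1.13 to 2.21 for EIF3H, and of 0.73 (without Cu 1) to 1.66 (without Cu 3) for EIF1B.

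Among the factors that select the start codon and join the ribosomal subunits, 7 had values and all 7 were tested. EIF1 (identifier 100736981, chromosome 12, 20974498 to 20977075) ranked between 58 and 103 among the 16050 genes in each library. It had 1231 FPKM in Control 1 and 1198 in Control 2, against 1291 in Cu 1 and 884 in Cu 3. The Cu values lay on both sides of the Control values. The ratio of EIF1 to EIF1B within a library was 17.0 and 18.4 in Control 1 and 2, and 5.89 and 7.72 in Cu 1 and 3. This ratio was lower in both Cu libraries, with a log2 difference of -1.39, but 2 libraries against 2 cannot give an exact two-sided permutation p below 0.333, and 0.333 was its value. EIF1 and EIF1B have similar coding sequences, and reads could have been shared between them. EIF5B, the GTPase that joins the large subunit, had 450.5 FPKM in Control 1 and 354 in Control 2, against 517 in Cu 1 and 245 in Cu 3. EIF5, which triggers GTP hydrolysis by eIF2, varied least in this group, with 146 FPKM in Control 1 and 149 in Control 2, against 119.6 in Cu 1 and 132 in Cu 3. Its Cu values were both below the Control values, with a log2 fold change of -0.23 (standard error 0.27). The authors' Control mean of 133 FPKM, however, puts their further Control library below both Cu values. EIF6, which keeps free large subunits from joining too early, had 5.56 FPKM in Control 1 and 7.22 in Control 2, against 34.8 in Cu 1 and 2.88 in Cu 3. It was the highest of the 4 libraries in Cu 1 and the lowest in Cu 3. EIF1AX, which works beside eIF1 on the scanning ribosome, stayed between 4.44 and 8.30 FPKM, and EIF1AD between 2.07 and 3.36 FPKM.

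The 3 subunits of eIF2 were unequal at the mRNA level. EIF2S2, the beta subunit, had 119.9 FPKM in Control 1 and 124 in Control 2, against 168 in Cu 1 and 171 in Cu 3. EIF2S1, the alpha subunit that is phosphorylated under stress, had 11.6 FPKM in Control 1 and 18.5 in Control 2, against 16.1 in Cu 1 and 33.0 in Cu 3. EIF2S3, the GTP-binding gamma subunit, had 12.6 FPKM in Control 1 and 8.90 in Control 2, against 21.5 in Cu 1 and 15.5 in Cu 3. Per library, EIF2S2 was between 5.19 and 10.4 times as high as EIF2S1 and between 7.79 and 13.9 times as high as EIF2S3. EIF2S2 and EIF2S3 were separated upward in Cu in these 4 libraries, with log2 fold changes of 0.47 (standard error 0.26) and 0.73 (standard error 0.38). The groups overlapped for EIF2S1. The authors' Control means, which include a further library, were 158 FPKM for EIF2S2 and 15.1 FPKM for EIF2S3. As means of 3, they put that library above both Cu values of each gene. EIF2A, an alternative carrier of initiator tRNA, was lower in both Cu libraries. It had 81.8 FPKM in Control 1 and 79.3 in Control 2, against 39.6 in Cu 1 and 56.1 in Cu 3. It had the lowest fold change of the 49 factors, -0.76 on the log2 scale (standard error 0.32, 95% interval -1.54 to 0.016, unadjusted p = 0.0535, adjusted p = 0.708 in limma). Its gene (identifier 100622221) lies at chromosome 13, 90761453 to 90804274.

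The exchange factor eIF2B, which reloads eIF2 with GTP, was weakly represented. EIF2B1, its alpha subunit, had 22.7 FPKM in Control 1 and 18.4 in Control 2, against 10.9 in Cu 1 and 14.5 in Cu 3. The log2 fold change was -0.66 (standard error 0.35), with the groups apart in these libraries only. The authors' Control mean of 16.9 FPKM puts their further Control library below both Cu values. EIF2B3 had 4.79 FPKM in Control 1 and 3.36 in Control 2, against 11.9 in Cu 1 and 3.06 in Cu 3. EIF2B2 and EIF2B5 stayed between 0 and 1.59 FPKM. EIF2D, another carrier of initiator tRNA, lay between 0.69 and 1.32 FPKM.

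The kinases that phosphorylate eIF2 alpha, and so lower initiation under stress, comprised 2 genes above 10 FPKM and 2 near 0. EIF2AK4 (GCN2, activated by amino acid shortage) had 21.3 FPKM in Control 1 and 19.9 in Control 2, against 16.7 in Cu 1 and 13.5 in Cu 3. Both Cu values were below both Control values, with a log2 fold change of -0.43 (standard error 0.33, 95% interval -1.24 to 0.38) that was -0.28 without Cu 3. EIF2AK2 (PKR, activated by double-stranded RNA) had 15.6 FPKM in Control 1 and 10.2 in Control 2, against 11.2 in Cu 1 and 13.3 in Cu 3, and its groups overlapped. EIF2AK3 (PERK, activated in the endoplasmic reticulum) stayed between 0.02 and 0.27 FPKM. EIF2AK1 (HRI, activated by lack of haem and by oxidants) was at 0.06 FPKM in Control 2 and 0.09 FPKM in Cu 1 and was listed at 0 in the others. Neither PERK nor HRI entered the test.

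The 11 eIF3 subunits with values differed widely in level, although their proteins work in 1 complex. EIF3E had 266 FPKM in Control 1 and 278 in Control 2, against 269 in Cu 1 and 379 in Cu 3. EIF3M had 245 FPKM in Control 1 and 272 in Control 2, against 202 in Cu 1 and 440.0 in Cu 3. These subunits formed the top of the order, their ranges over the 4 libraries overlapped with each other, and the lowest EIF3M value was above the highest value of the next subunit, EIF3K. EIF3K, EIF3J, EIF3I, EIF3L and EIF3H followed with means of 93.6, 76.1, 74.5, 55.0 and 50.8 FPKM, and each of them overlapped with its neighbour in the order. EIF3D had a mean of 8.76 FPKM and EIF3G 3.17 FPKM. EIF3A, the subunit around which the complex is built, had 1.02 and 2.11 FPKM in Control 1 and 2, and 0.76 FPKM in both Cu libraries. EIF3E thus exceeded EIF3A between 132 and 499 times in the same library. With EIF3A near the filter of 1 FPKM, the size of this ratio is imprecise.

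Of the 10 tested eIF3 subunits, 7 had a log2 fold change above 0 and 3 below (6 and 4 after quantile normalization). Of all tested genes, 64.3% were above 0 on the deposited scale. EIF3H alone passed an unadjusted p of 0.05 in limma, where 7.01% of all tested genes did. EIF3K had 54.0 FPKM in Control 1 and 50.3 in Control 2, against 200.1 in Cu 1 and 70.1 in Cu 3. Its log2 fold change of 1.17 (standard error 0.51, unadjusted p = 0.0636, adjusted p = 0.708 in limma) fell to 0.42 without Cu 1. The median log2 fold change of the tested subunits was 0.22, was -0.16 without Cu 1, and was 0.72 without Cu 3. EIF3F, which was not tested, had 0.04 and 0.26 FPKM in Control 1 and 2 and was listed at 0 in Cu 3, while Cu 1 had 14.3 FPKM.

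Among the cap binders, EIF4E had the highest level in every library and EIF4E3 the lowest, with EIF4E2 and EIF4E1B between them. EIF4E had 85.0 FPKM in Control 1 and 99.1 in Control 2, against 106 in Cu 1 and 154 in Cu 3. The Cu values were both above the Control values, with a log2 fold change of 0.47 (standard error 0.32, 95% interval -0.30 to 1.25) that was 0.74 without Cu 1 and 0.20 without Cu 3. EIF4E1B, a relative of EIF4E known from oocytes, had 21.1 FPKM in Control 1 and 22.5 in Control 2, against 55.0 in Cu 1 and 22.1 in Cu 3. Cu 3 lay between the Control values, and Cu 1 stood above all 3 others. EIF4E2, a cap binder that represses translation, had 43.9 FPKM in Control 1 and 28.8 in Control 2, against 44.7 in Cu 1 and 42.1 in Cu 3. EIF4E3 had 8.84 FPKM in Control 1 and 9.73 in Control 2, against 4.55 in Cu 1 and 7.83 in Cu 3, a log2 fold change of -0.55 (standard error 0.40) with both Cu values below. This was -0.22 without Cu 1 and -0.89 without Cu 3. The authors' Control mean of EIF4E3, 7.68 FPKM, puts their further Control library below both Cu values.

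The helicases EIF4A2 and EIF4A1, which unwind the leader of the mRNA, were close in level. EIF4A2 had 199.9 FPKM in Control 1 and 193 in Control 2, against 237 in Cu 1 and 185 in Cu 3. EIF4A1 had 144 FPKM in Control 1 and 138 in Control 2, against 180.3 in Cu 1 and 158 in Cu 3. EIF4A2 was 1.17 to 1.40 times as high as EIF4A1 in each library. EIF4A3, the relative that belongs to the exon junction complex, had 60.2 FPKM in Control 1 and 71.8 in Control 2, against 142 in Cu 1 and 66.5 in Cu 3. EIF4H, which assists the helicase, ranged from 47.7 FPKM in Cu 3 to 98.9 FPKM in Cu 1.

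The eIF4G scaffolds were unequal in level. EIF4G2 (DAP5), which lacks the part that binds eIF4E, had 215 FPKM in Control 1 and 257 in Control 2, against 169 in Cu 1 and 232 in Cu 3. EIF4G3 stayed between 5.0 and 8.76 FPKM. EIF4G1, the main scaffold of most cells, had 0.40 FPKM in Control 1 and 1.47 in Control 2, against 1.87 in Cu 1 and 0.76 in Cu 3. EIF4G2 was 19.3 to 46.4 times as high as EIF4G3 within a library. Of the 11 tested eIF4 genes, 0 were at an unadjusted p of 0.05 or less in limma, where 7.01% of all tested genes were.

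**Figure D3:**
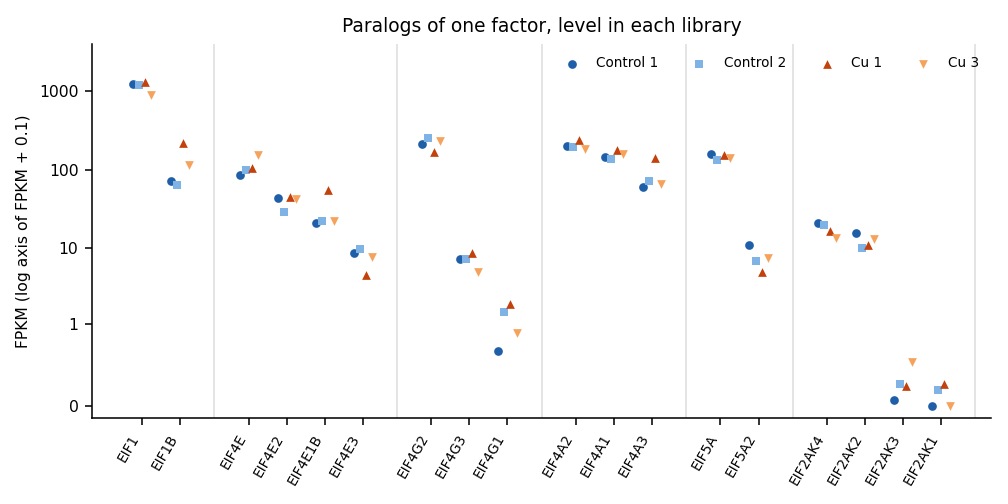
FPKM of paralogous translation factors in the 4 libraries, on a log axis of FPKM + 0.1, with 1 point per library. In each set a single gene or a pair carries most of the FPKM, as EIF1, EIF4E, EIF4G2 and EIF5A do, and EIF2AK3 and EIF2AK1 stay near 0.

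Among the proteins that bind eIF4E, EIF4ENIF1 (4E-T), which keeps eIF4E-bound mRNAs silent in storage granules, had 99.3 FPKM in Control 1 and 110.2 in Control 2, against 157 in Cu 1 and 62.3 in Cu 3. The Cu values enclosed the Control values. EIF4EBP1, the inhibitor released when mTOR is active, had 22.5 FPKM in Control 1 and 10.6 in Control 2, against 22.3 in Cu 1 and 9.25 in Cu 3, so that the spread within each group covered most of the whole range. EIF4EBP2 stayed between 0.26 and 1.02 FPKM, and EIF4EBP3 was at 0.22 FPKM in Control 2 and listed at 0 in the other libraries.

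EIF5A, which helps ribosomes past stretches that stall them, had 160.0 FPKM in Control 1 and 133 in Control 2, against 155 in Cu 1 and 143 in Cu 3. Its log2 fold change was 0.028 (standard error 0.28, 95% interval -0.65 to 0.70), and was -0.11 after quantile normalization. EIF5A2 was lower, with 11.2 FPKM in Control 1 and 6.99 in Control 2, against 5.04 in Cu 1 and 7.48 in Cu 3. The groups overlapped for both genes.

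Elongation factor mRNAs were dominated by EEF1A1, which delivers aminoacyl-tRNA to the ribosome. EEF1A1 (identifier 574059, chromosome 1, 92421235 to 92425053) had 143 FPKM in Control 1 and 138 in Control 2, against 147 in Cu 1 and 153 in Cu 3. It was the elongation factor with the closest agreement between these 4 libraries. The authors' Control mean, which includes a further library, was 195 FPKM, above both Control values here. The log2 fold change was 0.095 (standard error 0.26) and turned to -0.059 after quantile normalization and -0.082 with median-of-ratios scaling. EEF1B2, a subunit of the complex that recharges eEF1A, had 23.3 FPKM in Control 1 and 18.3 in Control 2, against 96.9 in Cu 1 and 22.2 in Cu 3. EEF1D, of the same complex, had 1.71 FPKM in Control 1 and 1.38 in Control 2, against 8.17 in Cu 1 and 1.47 in Cu 3. For both genes Cu 1 stood alone and Cu 3 lay between the Control values. EEF2, which moves the ribosome along by a codon, had 8.97 FPKM in Control 1 and 5.21 in Control 2, against 24.8 in Cu 1 and 3.69 in Cu 3. EEF1G ranged from 0.54 FPKM in Cu 3 to 2.78 FPKM in Cu 1. EEF1E1, which belongs to a complex of tRNA synthetases, went the other way, with 20.8 FPKM in Control 1 and 27.0 in Control 2, against 15.4 in Cu 1 and 46.3 in Cu 3. All 6 tested genes had a log2 fold change above 0 on the deposited scale, as did 64.3% of all tested genes. Their median was 0.33, but EEF1A1, EEF1E1 and EEF1G were below 0 after quantile normalization, at -0.059, -0.038 and -0.13. None of the 6 passed an unadjusted p of 0.05 in limma (7.01% of all tested genes passed). With Cu 3 left out the median was 1.22, and with Cu 1 left out it was 0.032.

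The enzymes that modify elongation factors were low. EEF1AKMT2, a methyltransferase of eEF1A, had 1.61 FPKM in Control 1 and 2.03 in Control 2, against 4.10 in Cu 1 and 3.36 in Cu 3. Its log2 fold change was 0.75 (standard error 0.35, unadjusted p = 0.0789, adjusted p = 0.708 in limma), with both Cu values above. EEF2K, the kinase that inhibits eEF2, had 1.60 FPKM in Control 1 and 2.18 in Control 2, against 2.32 in Cu 1 and 2.42 in Cu 3. Its log2 fold change of 0.23 (standard error 0.35) turned to -0.012 after quantile normalization and was 0.084 without Control 1. EEF1AKMT3, EEF1AKMT1 and EEF2KMT were not tested, and EEF1AKMT3 had 3.33 FPKM in Cu 3 against 0.08 to 0.45 FPKM elsewhere.

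The Cu libraries differed from each other more than the Control libraries did. Over the 49 factors the median absolute difference on the log2(FPKM + 1) scale was 0.26 between Control 1 and 2 and 0.67 between Cu 1 and 3, beside 0.27 and 0.56 over all tested genes. Cu 1 was the highest of the 4 libraries for 28 factors, 57.1% of the 49, against 51.0% of all tested genes. It was more than 2 times the next library for 8 factors, 16.3% of the 49, against 14.2% of all tested genes. These 8 were EIF6, EIF2B3, EIF3K, EIF3D, EIF4E1B, EEF1B2, EEF2 and EEF1D. Cu 1 was also the library with the most genes at 1 FPKM or more and with the highest GREM1, and the part of either in these values was not tested.

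**Figure D4:**
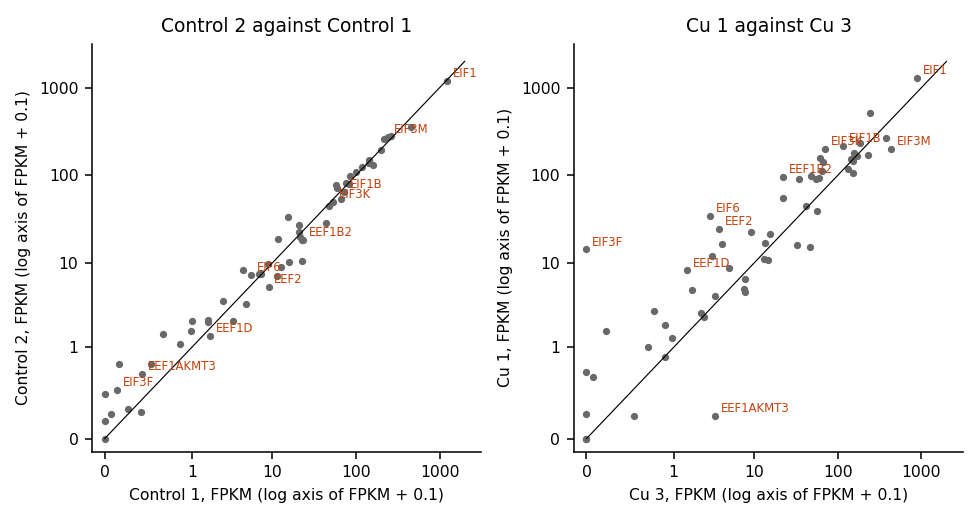
FPKM of the 59 translation factors in the replicates of each group, on log axes of FPKM + 0.1, with the line of equal values. Most Control points lie near the line, with exceptions such as EIF2B2 (0.05 FPKM in Control 1 and 0.61 in Control 2) and EIF3H (15.5 and 33.8). In the Cu panel EIF3F, EIF6, EEF1B2, EEF1D and EEF2 lie above the line, towards Cu 1, and EIF3M and EEF1AKMT3 below it, towards Cu 3.

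The number of calls therefore depended on which library was left out. Without Control 1, 0 factors were higher and 0 lower at an unadjusted p of 0.05 or less (1.31% and 0.176% of all tested genes). Without Control 2, 1 factor was higher and 0 lower (2.2% and 0.176% of all tested genes). With Cu 3 left out, so that Cu 1 alone stood against both Control libraries, 15 factors were higher and 3 lower at an unadjusted p (27.7% and 6.91% of all tested genes). By limma's adjusted p, 14 of the 49 passed 0.05, where 20.5% of all tested genes did. Of these 14, 13 were above 0, with EIF6, EEF1B2 and EIF3H highest at log2 fold changes of 2.29, 2.18 and 1.98, and EIF2A, at -1.01, was the single factor below 0. With Cu 1 left out, 0 of the 49 passed limma's adjusted p, where 2.18% of all tested genes did. At an unadjusted p, 6 were then higher and 3 lower, where 8.69% and 6.81% of all tested genes were. The 6 were EIF3H, EIF2S1, EEF1E1, EIF3M, EIF4E and EIF1B, and the 3 were EIF4ENIF1, EIF6 and EIF5B. EIF6, at -0.92, thus changed its direction between these fits. In these fits the remaining Cu library was taken to vary as the Control libraries did.

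Genes that work with the translation factors were counted from lists chosen by their function. Of 42 listed genes, 40 had values and 29 were tested, and 0 of the 29 were at an unadjusted p of 0.05 or less in limma, where 7.01% of all tested genes were. Their median log2 fold change was 0.14, with 19 above 0 and 10 below (65.5% above, against 64.3% of all tested genes). After quantile normalization it was -0.094, with 13 above and 16 below. Of the poly(A)-binding list, 5 of 6 genes with values were tested, with a median of 0.14 (-0.087 after quantile normalization). PAIP1, which links poly(A)-binding protein to eIF4A, was the highest gene of these lists, with 370.4 FPKM in Control 1 and 423 in Control 2, against 293 in Cu 1 and 647 in Cu 3. PABPC1L, the poly(A)-binding protein of oocytes, had 26.5 FPKM in Control 1 and 19.2 in Control 2, against 48.0 in Cu 1 and 16.2 in Cu 3, whereas PABPC1, the form of somatic cells, stayed between 0.55 and 0.87 FPKM. Of the mTOR and eIF4 signalling list, 7 of 11 genes were tested, with 1 above 0 and 6 below, where 64.3% of all tested genes were above 0. The median was -0.095, and PDCD4 and RPS6KB1 were close to 0, at -0.0065 and -0.0096. The smallest unadjusted p of the list, 0.155 in limma, was that of MLST8, the gene above 0, with a log2 fold change of 0.69. RHEB, the GTPase that activates mTOR, had 258 FPKM in Control 1 and 336 in Control 2, against 238 in Cu 1 and 305 in Cu 3. MTOR itself lay between 0.46 and 1.68 FPKM.

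In the list of genes tied to eIF2 phosphorylation, as its targets or regulators, 5 of 5 tested genes had a log2 fold change above 0, as did 64.3% of all tested genes. The median was 0.25, and 3 of the 5 were above 0 after quantile normalization. ATF4, the transcription factor whose translation rises when eIF2 is phosphorylated, had 18.7 FPKM in Control 1 and 23.4 in Control 2, against 73.0 in Cu 1 and 19.0 in Cu 3. DDIT3, a target of ATF4, had 98.0 FPKM in Control 1 and 48.7 in Control 2, against 87.9 in Cu 1 and 76.8 in Cu 3, with the Cu values inside the Control range. Among release and recycling factors 4 of 6 were tested, with a median log2 fold change of 0.32 (0.053 after quantile normalization). ABCE1, which splits ribosomes after termination, and GSPT1, a termination factor, had close means over the 4 libraries, of 17.2 and 16.7 FPKM, with ABCE1 lower than GSPT1 in Cu 1 (8.48 and 30.5 FPKM) and higher in the others. The enzymes that make the hypusine of eIF5A, DHPS and DOHH, were not tested. DHPS had 4.91 FPKM in Cu 1 and between 0.47 and 0.62 FPKM in the other libraries.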

How the data were processed

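The authors deposited 1 table of FPKM per gene, with a column for each of these 4 libraries and the authors' mean FPKM of each group, taken over 3 libraries. The submitters' processing notes name TopHat2 2.0.13, Cufflinks 2.2.1, Cuffnorm, Cuffdiff and the build Sscrofa11.1, whereas the methods of the study name HISAT2, Bowtie2 and RSEM, so that the program behind the values is uncertain. The group of each library was taken from its label, and whether the columns carry the right group could not be settled from the files.

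Genes that reached 1 FPKM in 2 or more libraries were compared on log2(FPKM + 1) by limma 3.58.1 in R 4.3.3. Its variances were moderated towards a trend with level, and p-values were adjusted over all tested genes after Benjamini and Hochberg. A fold change on this scale understates the change of low genes. The fit was checked on simulated data in which both groups had the same spread. This does not cover the larger difference between the Cu libraries. Of 200 genes changed by a log2 of 2, 143 were recovered among 152 called. For a log2 of 4, all 200 were recovered among 217 called. Quantile normalization, rescaling, other filters, another pseudocount and leaving out each library were tried.

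The translation factors and gene lists were chosen with earlier results of these data known. Given with values in every library were the 2 highest factors of each role group, those at an unadjusted p of 0.05 or less, the paralog sets, and the 3 largest fold changes in each direction. The other factors, and genes outside the highest of each pathway list, were added after their values were seen. All 59 factors matched RefSeq by gene identifier. No sequence is shown.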

Additional observations from a re-analysis of the deposited data

How the results depend on the processing

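Leaving out each library gave 0 to 1755 genes of the whole table at an adjusted p of 0.05 or less, and 127 to 2958 at an unadjusted p. Among the translation factors it gave 0 to 14 at an adjusted p, 0 to 15 higher and 0 to 3 lower at an unadjusted p, and a median log2 fold change of -0.040 to 0.32. The highest counts came without Cu 3, and the lowest median came without Cu 1. One more count moved: 1 factor, EIF2A, was lower at an unadjusted p with no filter on low values, after rescaling every library to the same FPKM sum and with median-of-ratios scaling. The median of the factors was -0.031 after quantile normalization and 0.037 with median-of-ratios scaling, where the median of all genes moved from 0.16 to -0.049 and 0.015. EEF1A1 turned to -0.059 after quantile normalization, -0.082 with median-of-ratios scaling and -0.41 with the authors' mean FPKM, which include a further library per group, an alternative chosen after seeing the data. EEF2K turned to -0.012 after quantile normalization. The fold changes followed here were those of the 16 factors whose groups did not overlap, so that leaving out a library could not turn their sign. In the other settings that gave a value, 14 of the 16 had 1 sign, and the cause of the changes was not tested. In the settings that kept all 4 libraries, 514 to 826 genes of the whole table and 2 or 3 factors higher in Cu were at an unadjusted p of 0.05 or less, with 0 at an adjusted p in limma. No paired analysis was possible because the groups share only replicate number 1. With 2 libraries per group and unknown depth, small differences were not detectable.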

Other observations

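The authors' mean FPKM of each group carried the decimals of a mean of 3 values for 16049 of 16050 genes in Control and 16047 in Cu (within 0.001 of a whole number after multiplying by 100 and by 3). Each thus includes 1 library not analysed here beside the 2 of its group, and is not independent of them. Their direction was the one of the 4 libraries for 42 of the 49 tested factors, a count that the shared libraries favour. For EIF3H the authors' means were 37.4 FPKM in Control and 85.1 FPKM in Cu, and for EIF1B they were 99.7 and 178 FPKM. For both genes the Control mean was above both Control libraries analysed here. As a mean of 3, it puts the further Control library above Cu 3 as well. The separation of the groups for EIF3H and EIF1B thus holds for the 4 libraries and does not extend to that library. The authors' Control means put it above both Cu libraries for EIF2S2 (mean 158 FPKM) and EIF2S3 (15.1 FPKM). They put it below both for EIF5 (133 FPKM), EIF2B1 (16.9 FPKM) and EIF4E3 (7.68 FPKM), and level with Cu 1 for EIF2AK4 (19.3 FPKM). For EIF2A, EIF3A, EIF3K, EIF4A1, EIF4E, EEF1AKMT2 and EEF2K it stayed on the Control side of both Cu libraries. For EEF1A1 the authors' means were 195 FPKM in Control and 146 FPKM in Cu, the opposite direction to the 4 libraries, both Control libraries here being at 143 FPKM or less.

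Of the 9 mitochondrial translation factors, 8 were tested, with a median log2 fold change of 0.24. Of the 8, 6 were above 0 and 2 below (4 and 4 after quantile normalization), where 64.3% of all tested genes were above 0. At an unadjusted p of 0.05 or less in limma there were 0 (7.01% of all tested genes). MRRF, which recycles mitochondrial ribosomes, was the highest, with 117 FPKM in Control 1 and 71.5 in Control 2, against 94.1 in Cu 1 and 69.4 in Cu 3.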
